A study of Mus musculus with 5 samples.

Results

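*Ecel1* and the genes of endothelin processing were followed through 5 RNA-seq libraries of sorted sympathetic neurons from mouse embryos. The genes listed were *Ecel1*, *Ece1*, *Ece2*, and *Mme*, which encode peptidases of the M13 (neprilysin) family, *Edn1* and *Edn3*, which encode endothelins, and *Ednra*, which encodes an endothelin receptor. They were found by matching the Ensembl identifiers of the count table to these symbols. Of the 7 genes, 5 were found among 20224 rows, and *Mme* and *Edn1* were not analysed here. *Ecel1* was chosen by its difference between genotypes in these same libraries, and the other genes were grouped around it by function. The differences between genotypes given below for these genes are therefore a description and not a test.

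M13 peptidases are zinc enzymes anchored in the membrane with the catalytic domain outside the cell or in the lumen of secretory compartments. ECE1 and ECE2 cut inactive big endothelins into endothelins, neprilysin (the product of *Mme*) degrades many small peptides, and ECEL1, also called DINE, is a neuronal member whose substrate is not known and whose gene is induced in injured neurons. Endothelins act through G protein-coupled receptors, and endothelin 3 with the receptor EDNRB is known for its role in neural crest cells, from which sympathetic neurons and their glia arise.

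Each library was made from 100 neurons of the stellate ganglia and thoracic sympathetic chain at E14.5, from non-diabetic pregnancies. Cells were sorted for tdTomato of the *Ai14* reporter, which Cre switches on, and for eGFP driven by the *Prph* promoter of peripheral neurons. The 2 control libraries (replicates 5 and 6) came, by the study's methods, from *Hif1a loxP/+; Isl1Cre* embryos with both reporters, whereas the series' design text describes controls without *Isl1-Cre*. The 3 *Hif1aCKO* libraries (replicates 3, 4, and 5) came from *Hif1a loxP/loxP; Isl1Cre* embryos, in which Cre removes exon 2 of the gene for the hypoxia-inducible factor subunit HIF-1α. *Isl1Cre* is a knock-in that disrupts 1 *Isl1* allele, is active in all cells of the *Isl1* lineage and not in sympathetic neurons alone, and is needed for the tdTomato of the sort. The study counts each library as a separate biological sample, but the labels do not say which embryos or how many gave its cells, so the spread between replicates may be partly technical.

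Counts on genes summed to 8254211 to 9700887 per library. *Hif1a* itself had 2086 and 1584 normalized counts in control replicates 5 and 6, against 2747, 1757, and 2135 in *Hif1aCKO* replicates 3, 4, and 5. These groups overlapped, and as counts are summed over all exons, loss of exon 2 alone cannot be read from them. *Xist* and *Ddx3y* counts placed both sexes in both groups, with control replicate 5 and *Hif1aCKO* replicate 3 female and the other 3 libraries male. All 10 sympathetic neuron markers were present (such as *Th* and *Dbh*), with a summed normalized count of 65976 to 84063 in control and 59586 to 63939 in *Hif1aCKO* libraries. Over the 15032 genes tested with edgeR's quasi-likelihood test, 0 were called (0%; smallest adjusted p = 0.446), and 1153 had an unadjusted p under 0.05. DESeq2 called 60 of 15478 genes, or 0.388%. Values in every *Hif1aCKO* library were below both controls for 12.9% of the genes tested and above both for 12.9%, and the median log2 fold change of all genes was 0.0123.

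The promoters of the genes are shown because the deleted factor binds DNA at hypoxia response elements, whose core is ACGTG or GCGTG. Both forms were searched on both strands in RefSeq windows (GRCm38.p6) from 250 bases before to 50 bases after each start site. Of all 32851 such windows, 43.8% held at least 1 match. Overlapping matches were counted separately, so that CACGTG, which is also the E-box, counts as 2. The bases before the first exon are printed 5′ to 3′ on the strand of the gene, with the core in capitals.
Ecel1, chr1:87156522-87156606, minus strand: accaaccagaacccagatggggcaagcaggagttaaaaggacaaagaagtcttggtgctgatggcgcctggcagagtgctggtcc
Ece1, chr4:137861987-137862236, plus strand: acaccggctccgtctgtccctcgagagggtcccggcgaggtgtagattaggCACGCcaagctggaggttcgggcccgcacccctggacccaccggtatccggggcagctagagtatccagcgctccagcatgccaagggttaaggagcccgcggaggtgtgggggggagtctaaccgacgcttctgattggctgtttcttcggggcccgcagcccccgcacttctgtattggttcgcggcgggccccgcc
Ece2, chr16:20629601-20629827, plus strand: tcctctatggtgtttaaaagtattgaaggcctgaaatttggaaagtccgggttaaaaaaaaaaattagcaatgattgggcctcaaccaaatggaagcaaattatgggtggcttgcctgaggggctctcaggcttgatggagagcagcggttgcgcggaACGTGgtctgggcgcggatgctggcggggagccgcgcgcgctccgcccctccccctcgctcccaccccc
Ednra, chr8:77724465-77724702, minus strand: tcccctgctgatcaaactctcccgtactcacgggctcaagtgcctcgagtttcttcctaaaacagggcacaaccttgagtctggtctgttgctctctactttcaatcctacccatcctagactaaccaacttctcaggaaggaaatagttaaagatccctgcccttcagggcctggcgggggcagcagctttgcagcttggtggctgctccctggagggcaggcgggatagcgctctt

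The window of *Ecel1* held 0 matches, as did those of *Edn3* and *Ednra*. The RefSeq start of *Ecel1* lies 165 bases inside the gene as annotated in GENCODE M21. Only 85 bases of its window therefore precede the first exon, against 250 for *Edn3* and 238 for *Ednra*. The first window of *Ece1* held 1 match, 199 bases before the start site, and that of *Ece2* held 1, 92 bases before it. A further start site of *Ece1*, at chr4:137913558, had 4 matches, at 90, 89, 74, and 33 bases before it, and the last of its 4 start sites had 0. A match is only a run of letters, and its absence says only that these letters are not in the window.

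*Ecel1* (ENSMUSG00000026247, chr1:87147655-87156521, minus strand) was the most abundant of the 5 genes and had lower counts in *Hif1aCKO* neurons. Its normalized count was 572 and 842 in control replicates 5 and 6, against 157, 261, and 188 in *Hif1aCKO* replicates 3, 4, and 5. Every *Hif1aCKO* library was below both controls, and the mean of controls (707 ± 191, SD, n = 2) was 3.51 times that of *Hif1aCKO* (202 ± 53.4, SD, n = 3). The log2 fold change was -1.81 (standard error 0.28), and 1.34% of all genes tested had a lower one. By the size of p, *Ecel1* was the 4th gene of the table, just after *Rbm45* and just before *Isl1*. It was not called by edgeR and was among the genes called by DESeq2.

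Split by sex, the same *Ecel1* values compare as follows, with 1 female library in each group. In female libraries the normalized count was 572 in the control and 157 in *Hif1aCKO*, and in male libraries it was 842 in the control against 261 and 188. With a term for sex, the log2 fold change was -1.89 (standard error 0.25), and without any 1 library it stayed between -2.06 and -1.51. In such bulk libraries, fewer cells that express *Ecel1* and less *Ecel1* RNA per cell cannot be told apart.

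The summed markers of chromaffin cells and of motor neurons were lower in every *Hif1aCKO* library than in both controls. The same held for the summed markers of sympathetic neurons, with 59586 to 63939 in *Hif1aCKO* against 65976 to 84063 in control libraries. Of the genes of these lists, 0 were called, where edgeR called 0% and DESeq2 0.388% of all genes. Chromaffin cells are the endocrine relatives of sympathetic neurons. Their markers were all present (6 of 6) and summed to 14540 to 19102 in control and 7817 to 13080 in *Hif1aCKO* libraries. Most of this gap was in *Chgb* (7105 ± 2250 against 2205 ± 2195 normalized counts, SD, n = 2 and 3). *Cyb561*, *Epas1*, and *Pnmt* were also lower without overlap, with log2 fold changes of -0.45, -1.36, and -1.91 (standard errors 0.16, 0.42, and 0.90). *Chga* and *Dlk1* had log2 fold changes of 0.0077 and -0.02. Of 8 motor neuron markers 5 were present, with sums of 710 to 973 and 353 to 541. *Slc18a3*, the vesicular acetylcholine transporter gene, held most of the motor neuron sum, while *Isl2* had at most 6.49 normalized counts in any library, and *Mnx1*, *Lhx3*, and *Olig2* were not analysed here. Whether chromaffin cells or motor neurons were in the sort was not tested, nor was any part of them in the difference of *Ecel1*.

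**Figure D1:**
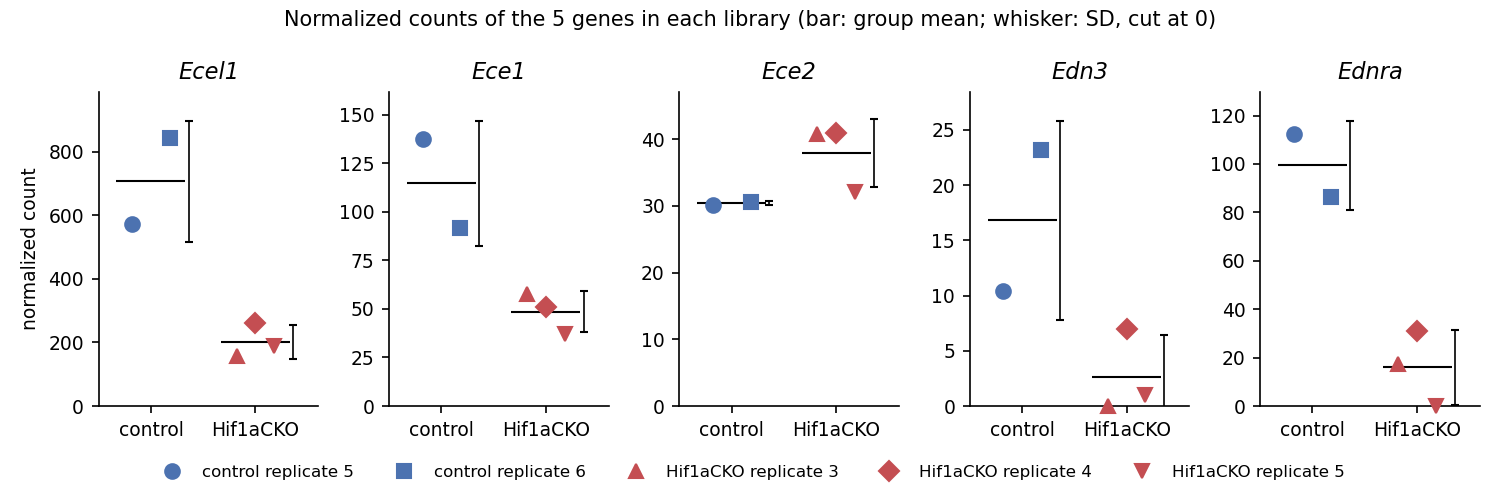
Normalized counts (vertical axis, from 0, with its own scale for each gene) of the 5 genes in each library, with group means as bars and SD as whiskers. *Ecel1*, *Ece1*, *Edn3*, and *Ednra* had each *Hif1aCKO* point below both control points, and *Ece2* had each above.

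*Ece1* (ENSMUSG00000057530, chr4:137862237-137965229, plus strand), the main endothelin-converting enzyme, was also lower in *Hif1aCKO* neurons. Its normalized count was 137 and 91.8 in control replicates 5 and 6, against 57.9, 50.9, and 37.0 in *Hif1aCKO* replicates 3, 4, and 5. The groups did not overlap. The means were 115 ± 32.3 (SD, n = 2) and 48.6 ± 10.7 (SD, n = 3), a ratio of 2.36, and the log2 fold change was -1.24 (standard error 0.43). Without any 1 library, it lay between -1.50 and -0.92.

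*Ece2* (ENSMUSG00000022842, chr16:20629828-20646485, plus strand), the relative of *Ece1* that acts at acidic pH, was low in all libraries and did not share this direction. Its normalized count was 30.2 and 30.6 in the controls, and 40.7, 40.9, and 32.1 in *Hif1aCKO* replicates 3, 4, and 5. All 3 *Hif1aCKO* values were above the controls, but the log2 fold change of 0.32 was smaller than its standard error of 0.59, and the mean was under the 50 normalized counts needed for a call. In GENCODE M21, 57.5% of the exonic bases of *Ece2* also belong to *Gm49333*, a gene on the same strand that runs from the neighboring *Eef1akmt4* into *Ece2*. *Gm49333* was not analysed here, and *Ece2* counts are uncertain to the extent that reads were assigned between the genes.

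Among the substrates of these enzymes, *Edn3* (ENSMUSG00000027524, chr2:174760619-174784042, plus strand), the gene of endothelin 3, was near the limit of detection. It had 10 and 25 reads in the controls and 0, 7, and 1 in *Hif1aCKO* replicates 3, 4, and 5. After normalization these were 10.4 and 23.2 against 0, 6.99, and 0.973, without overlap. The log2 fold change of -2.60 had a standard error of 1.42, and the gene passed the filter on low counts only through its control values, so some difference was required of it. A count of 0 allows up to 3 reads in a library.

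*Ednra* (ENSMUSG00000031616, chr8:77663031-77724464, minus strand), the receptor that binds endothelin 1 and 2 with preference, was lower in *Hif1aCKO* neurons by about as much as *Edn3* on the log2 scale. Its normalized count was 112 and 86.3 in control replicates 5 and 6, against 17.2, 31.0, and 0 in *Hif1aCKO* replicates 3, 4, and 5. The lower control was thus above the highest *Hif1aCKO* library, and no read was counted in replicate 5. The log2 fold change was -2.62 (standard error 1.09), and it ranged from -3.54 to -2.04 without any 1 library. It was -2.04 (standard error 0.58) without *Hif1aCKO* replicate 5, the library with 0 reads. The mean of *Ednra* over all libraries, 49.4 normalized counts, was under the 50 needed for a call. Only 1.66% of the exonic bases of *Ednra* are shared, with the antisense gene *4933431K23Rik*, which had at most 7 reads in any library.

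Cells that could bring *Ednra*, *Ece1*, or *Edn3* RNA into the sort were checked by their markers. Of 10 mesenchyme and smooth muscle markers 6 were present, and they summed to 25.0 to 63.5 normalized counts in control and 36.5 to 89.9 in *Hif1aCKO* libraries. Most of this was *Tagln*, which shares 67.9% of its exonic bases with other genes, whereas *Pdgfrb* and *Lum* had at most 3 reads in every library. Of 10 endothelium markers 4 were present, with sums of 69.8 to 100 and 58.9 to 89.5. *Egfl7* had 35.0 to 66.5 normalized counts in every library. *Pecam1* was at 0 in 3 libraries, control replicate 6 among them. In that library *Kdr* was at its highest (38.0) and *Esam* had 12.1, while both were at 0 in control replicate 5. The sums of both lists overlapped between genotypes. Erythroid markers (3 of 8 present) summed to 8.33 to 42.9 over all libraries, and sensory neuron markers (5 of 10) to 49.2 to 56.2 and 44.0 to 96.3.

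In all, each of the 5 genes was tested and had groups that did not overlap, 4 lower and 1 higher in *Hif1aCKO*, where 12.9% of all genes tested were lower and 12.9% higher in this sense. Their median log2 fold change was -1.81, against 0.0123 over all genes. As *Ecel1* was chosen from this contrast and *Edn3* passed the filter through 1 group only, these counts describe the genes and carry no test.

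The other receptor, *Ednrb* (ENSMUSG00000022122, chr14:103814625-103844402, minus strand), was dominated by 1 library. Its normalized count was 66.7 and 26.9 in control replicates 5 and 6, against 490, 53.9, and 0 in *Hif1aCKO* replicates 3, 4, and 5. The fitted difference of 1.95 on the log2 scale (standard error 1.59) had an adjusted p of 0.806 by edgeR, and it was -0.79 without *Hif1aCKO* replicate 3. The genotypes therefore overlapped, and no direction was shared by the libraries.

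Of the 7 glial and Schwann cell precursor markers present (of 10 listed), 5 were highest in the same library and 2 were not. *Fabp7*, a fatty acid-binding protein gene of these cells, had 993 normalized counts in *Hif1aCKO* replicate 3, 8.76 in replicate 5, and 0 in the other 3 libraries. *Erbb3*, the neuregulin receptor gene, had 53.6 there and at most 2.08 elsewhere, and the adhesion gene *Cdh19* had 54.7 there and 0 elsewhere. *Sox10*, the defining transcription factor, reached 8.58. The neurotrophin receptor gene *Ngfr*, which sympathetic neurons also express, was at its lowest there, with 62.2 against 258 and 379 in the controls, and the myelin gene *Mbp* had 129 there against 310 in *Hif1aCKO* replicate 4. The 7 markers summed to 1390 in this library, against 442 and 572 in the controls and 489 and 338 in *Hif1aCKO* replicates 4 and 5, and *Ngfr* and *Mbp* held most of the sum in the controls. The part of glial RNA in the *Ednrb* count was not tested. *Ecel1*, *Ece1*, and *Ednra* remained lower in *Hif1aCKO* without this library, with log2 fold changes of -1.66, -1.38, and -2.67.

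**Figure D2:**
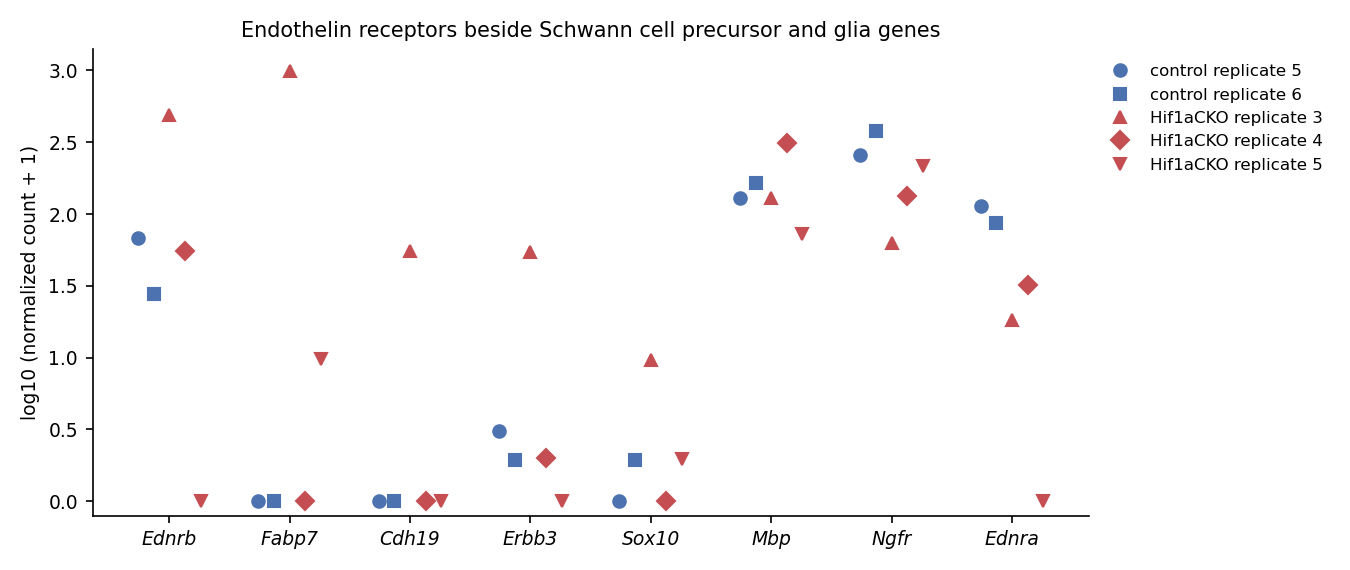
Normalized counts plus 1 on a log10 scale (vertical axis) for both endothelin receptors and 6 of the glial genes present, with 1 point per library. *Hif1aCKO* replicate 3 is highest for *Ednrb* and for 4 of the 6 glial genes shown, lowest for *Ngfr*, and between the other *Hif1aCKO* libraries for *Mbp* and *Ednra*.

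To compare levels between genes, counts were divided by the length of the exons of a gene and by the library size (reads per kilobase and per unit of library size, RPKM). *Ecel1* had 18.7 and 27.5 RPKM in the controls and 5.11, 8.51, and 6.13 in *Hif1aCKO* replicates 3, 4, and 5, so even its lowest value exceeded every value of *Ece1*, *Ece2*, *Edn3*, and *Ednra*. *Ece1* lay between 0.797 and 2.97 RPKM, *Ednra* between 0 and 2.35, *Ece2* between 0.676 and 0.916, and *Edn3* between 0 and 0.645. In controls the order of the mean levels was *Ecel1* (23.1 ± 6.24 RPKM, SD, n = 2), *Ece1* (2.47 ± 0.697), *Ednra* (2.08 ± 0.387), *Ednrb* (1.25 ± 0.754), *Ece2* (0.680 ± 0.00636), *Edn3* (0.467 ± 0.251), and *Phex* (0.0179 ± 0.00147), an M13 peptidase gene known from bone mineralization. In *Hif1aCKO* libraries it was *Ecel1* (6.58 ± 1.75 RPKM, SD, n = 3), *Ednrb* (4.86 ± 7.20), *Ece1* (1.05 ± 0.23), *Ece2* (0.849 ± 0.113), *Ednra* (0.335 ± 0.324), *Phex* (0.0773 ± 0.119), and *Edn3* (0.0738 ± 0.105). The place of *Ednrb* there came from *Hif1aCKO* replicate 3, with 13.1 RPKM against at most 1.79 in any other library.

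Most neighbors in the order of the means over all 5 libraries (*Ecel1*, *Ednrb*, *Ece1*, *Ednra*, *Ece2*, *Edn3*, *Phex*) were not separated by their spread. *Ecel1* exceeded *Ednrb* in 4 of 5 libraries, *Ednrb* exceeded *Ece1* in 2, *Ece1* exceeded *Ednra* in 5, *Ednra* exceeded *Ece2* in 2, and *Edn3* exceeded *Phex* in 4. Only the neighbors *Ece2* and *Edn3* had ranges that did not meet. *Phex* had 1 read in each control and 11, 0, and 1 in *Hif1aCKO* replicates 3, 4, and 5, too few to be tested, and the M13 genes *Mmel1* and *Kel* and the ligand gene *Edn2* were not analysed here.

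The balance of the peptidases thus differed between libraries. The ratio of *Ecel1* to *Ece1* in RPKM was 6.30 and 13.9 in the controls and 4.09, 7.75, and 7.69 in *Hif1aCKO* replicates 3, 4, and 5, so the genotypes overlapped. The ratio of *Ecel1* to *Ece2* was 27.7 and 40.2 in the controls and 5.61, 9.29, and 8.54 in *Hif1aCKO*, without overlap. As *Ecel1* was chosen by its difference between these libraries, this separation is a description only. The ratio of *Ednra* to *Ednrb* was above 1 in both controls (1.32 in replicate 5) and 0.0273 and 0.447 in *Hif1aCKO* replicates 3 and 4, while both receptors had 0 reads in replicate 5.

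**Figure D3:**
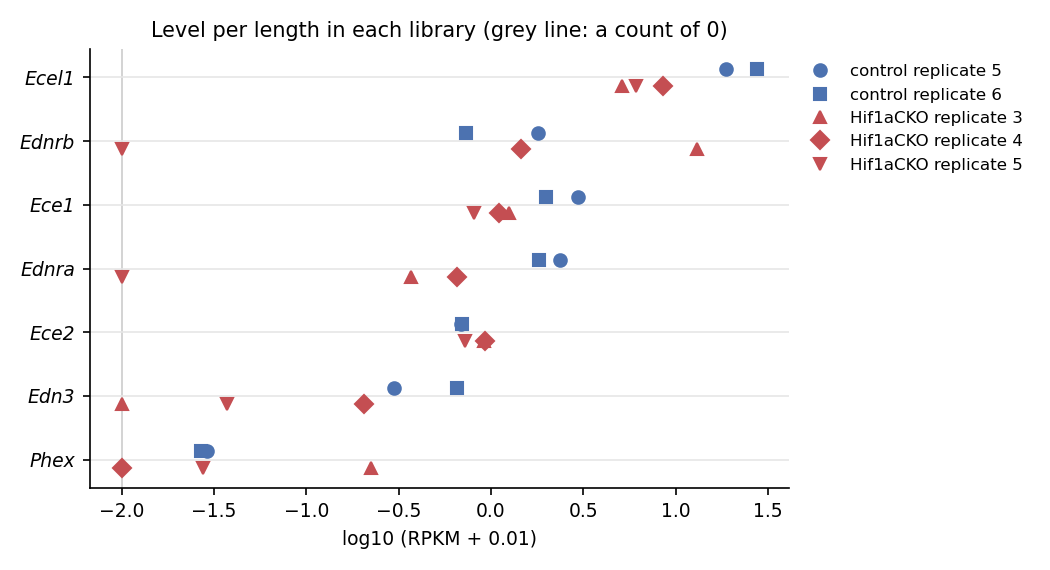
Level per length of the M13 peptidases, endothelin 3, and both receptors in each library, as log10 of RPKM plus 0.01 (horizontal axis). The *Ecel1* points lie to the right of those of all other genes but for *Ednrb* in *Hif1aCKO* replicate 3, and the controls lie to the right of *Hif1aCKO* for *Ecel1*, *Ece1*, *Ednra*, and *Edn3*.

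Downstream of the receptors, the genes of G protein signaling had no common direction. Of 18 listed genes 16 were tested, of which 8 had a higher and 8 a lower fold change in *Hif1aCKO*. By edgeR or DESeq2 0 were called, where these tools called 0% and 0.388% of all genes. With such low shares, 0 calls in this list or those below say little about a list. The median log2 fold change of the 16 genes was -0.0057, against 0.0123 over all genes. The most abundant of them was *Gnai3*, an inhibitory G protein subunit gene, which averaged 3389 ± 906 normalized counts in *Hif1aCKO* (SD, n = 3) against 4619 ± 66.2 in controls (SD, n = 2; log2 fold change -0.45, standard error 0.20). *Plcb4*, a phospholipase C gene, averaged 2865 ± 61.5 in *Hif1aCKO* against 2821 ± 153 (log2 fold change 0.02, standard error 0.12). *Gna11*, which encodes a G protein subunit that couples endothelin receptors to phospholipase C, averaged 1566 ± 314 against 2018 ± 27.5 (log2 fold change -0.37, standard error 0.19).

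Of 10 other peptidases that act on secreted peptides, 6 were tested. Of these, 5 had a lower and 1 a higher fold change, with a median of -0.27 on the log2 scale, against 0.0123 over all genes. By either tool 0 were called, against 0% of all genes by edgeR and 0.388% by DESeq2. The insulin-degrading enzyme gene *Ide* had 1358 and 1239 normalized counts in the controls and 944, 986, and 1047 in *Hif1aCKO* replicates 3, 4, and 5 (log2 fold change -0.39, standard error 0.15). *Prep*, the prolyl endopeptidase gene, had 951 and 1014 against 758, 734, and 772 (log2 fold change -0.38, standard error 0.15). In both genes the groups did not overlap, with a gap that was small next to that of *Ecel1*. *Lnpep*, the 1 gene with a higher fold change, had 302 and 235 against 380, 516, and 388, also without overlap (log2 fold change 0.67, standard error 0.25). *Nln*, the neurolysin gene, overlapped, with 845 and 857 in the controls and 700, 501, and 1077 in *Hif1aCKO*.

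Neuropeptides and other peptides that neprilysin-type enzymes can cut were mixed. Of 14 listed genes 10 were tested, 6 with a higher and 4 with a lower fold change. Their median log2 fold change was 0.21, against 0.0123 over all genes. By either tool 0 were called, against 0% of all genes by edgeR and 0.388% by DESeq2. *Vip*, the vasoactive intestinal peptide gene, had 3425 and 1828 normalized counts in the controls and 3497, 2802, and 4155 in *Hif1aCKO* replicates 3, 4, and 5, and the groups overlapped. *Npy*, the neuropeptide Y gene, the classical cotransmitter of sympathetic neurons, had 2424 and 2589 against 1276, 2116, and 2143, without overlap (log2 fold change -0.44, standard error 0.22, adjusted p = 0.698 by edgeR). *Adm*, the adrenomedullin gene, had 656 and 463 against 487, 604, and 513, and the groups overlapped.

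As *Ecel1* is induced by nerve injury, genes of that response were followed too. Of 10 listed genes 9 were tested, 3 with a higher and 6 with a lower fold change. Their median log2 fold change was -0.26, against 0.0123 over all genes. By either tool 0 were called, against 0% of all genes by edgeR and 0.388% by DESeq2. The growth cone protein gene *Gap43* averaged 30155 ± 3053 normalized counts in *Hif1aCKO* (SD, n = 3) against 37747 ± 3899 in controls (SD, n = 2), and the transcription factor genes *Sox11* and *Klf6* averaged 9976 ± 2646 against 13064 ± 825 and 1207 ± 233 against 1449 ± 301. Their log2 fold changes were -0.32, -0.39, and -0.26. *Atf3*, a transcription factor gene induced in injured neurons, had 111 and 11.1 normalized counts in the controls and 24.7, 27.0, and 4.87 in *Hif1aCKO* replicates 3, 4, and 5, with overlap and a log2 fold change of -1.70 (standard error 1.03). *Stat3*, another transcription factor gene of this response, had 574 and 596 against 441, 362, and 311, without overlap (log2 fold change -0.66, standard error 0.21, adjusted p = 0.618 by edgeR). Immediate early genes, which respond to tissue dissociation, had 7 of 10 genes tested, 2 with a higher and 5 with a lower fold change. Their median log2 fold change was -0.18, and 0 were called, against the same shares of all genes. Their most abundant members *Dusp1*, *Ier2*, and *Btg2* had log2 fold changes of -0.40, -0.18, and -0.18, with standard errors of 0.22, 0.24, and 0.32.

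**Figure D4:**
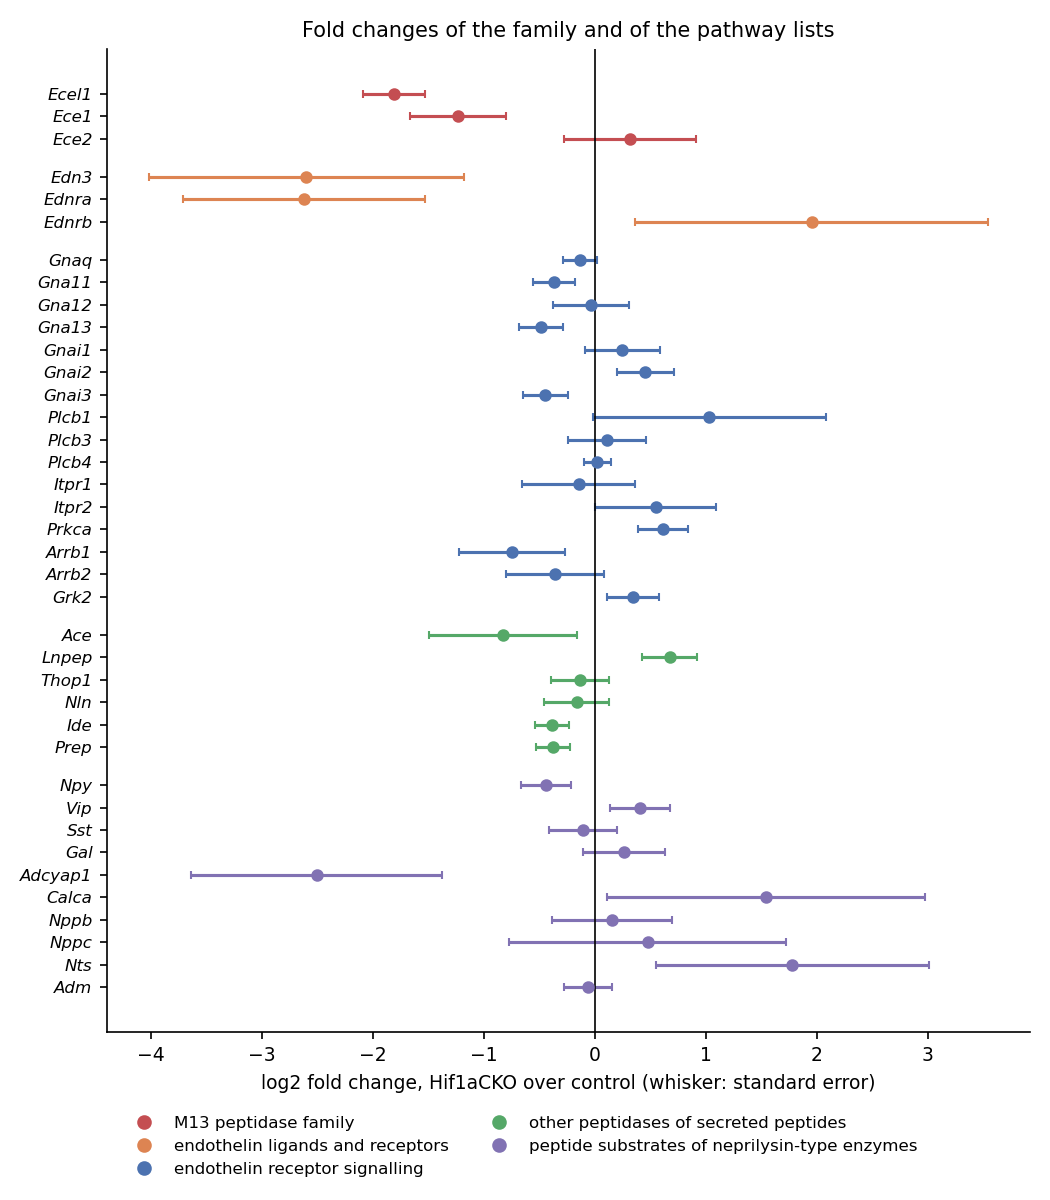
Log2 fold change of *Hif1aCKO* over control (horizontal axis), with standard errors, for all tested genes of 5 lists in separate colors. *Ecel1*, *Ece1*, *Edn3*, and *Ednra* lie left of 0 by more than 1 standard error, *Ednrb* and *Ece2* lie right of it, and signaling genes scatter on both sides.

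Among the genes whose values over the libraries were most like those of *Ecel1* were *Tbx20*, *Sept4*, *Irs1*, and *Rwdd2a*. Likeness was the root mean square difference over the 5 libraries between log2 normalized counts centered on the mean of each gene, among tested genes with a mean of at least 50, and it was 0.152, 0.246, 0.278, and 0.287 in this order. *Tbx20*, a T-box transcription factor gene, had 147 and 239 normalized counts in the controls, against 42.9, 66.9, and 64.2 in *Hif1aCKO* replicates 3, 4, and 5. As in *Ecel1*, control replicate 6 was highest and *Hif1aCKO* replicate 3 lowest.

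The other 3 genes kept the separation of the groups but not this order. *Irs1*, the gene of an adaptor of the insulin and IGF receptors, had 365 and 593 normalized counts in the controls and 173, 179, and 138 in *Hif1aCKO* replicates 3, 4, and 5. The septin gene *Sept4* had 159 and 165 against 50.4, 75.9, and 46.7, and *Rwdd2a* had 147 and 172 against 50.4, 66.9, and 34.1. The lowest library was thus *Hif1aCKO* replicate 5 in all 3 genes. The log2 fold changes of these 4 genes lay between -1.73 and -1.49, and as they were picked for likeness to *Ecel1*, these values describe them only.

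**Figure D5:**
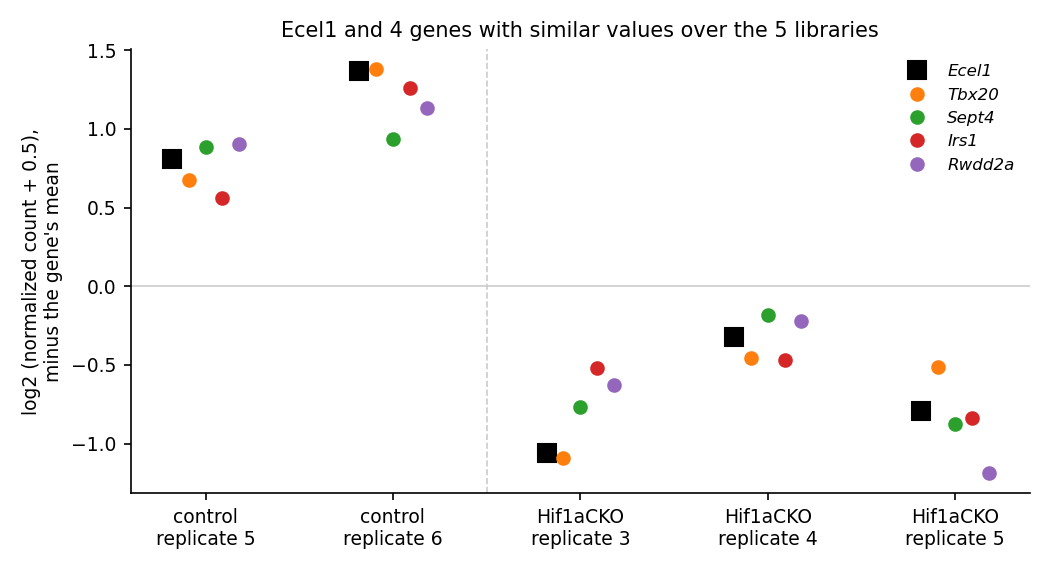
Log2 of the normalized count plus 0.5, minus the mean of each gene (vertical axis), for *Ecel1* and 4 of the genes most like it in each library. All 5 genes are above 0 in both controls and below 0 in all 3 *Hif1aCKO* libraries.

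*Isl1*, the locus of the Cre knock-in, stands next to *Ecel1* by the size of p and had 12577 and 14019 normalized counts in the controls and 8634, 7800, and 8722 in *Hif1aCKO* replicates 3, 4, and 5 (log2 fold change -0.67, standard error 0.10). *Prph*, whose promoter drives the sort reporter, had 4483 and 5966 against 6541, 5927, and 4970, and the groups overlapped. By the study's methods the controls carry this knock-in too, which disrupts *Isl1*, and the tdTomato of the sort needs it. The series' design text describes controls without it. The part of *Isl1* in the values of *Ecel1* was not tested.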

How the data were processed

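RNA of 100 sorted neurons per library was sequenced for 2 control and 3 *Hif1aCKO* libraries. The authors trimmed reads with cutadapt (1.18) and Trimmomatic, removed rRNA and vector reads with Bowtie (1.2.2) and SortMeRNA, mapped the rest with STAR (2.7.0c) to GRCm38, and assigned uniquely mapped reads to genes with Rsubread. The deposited counts are raw, and strand use is not given in the sources used here. Symbols, exon lengths, and positions were taken from GENCODE M21 (20189 of 20224 identifiers matched), and promoters from RefSeq. The study names an older annotation release.

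Genes were kept with filterByExpr (minimum count 10, minimum total 15), normalized by TMM (factors 0.974 to 1.03), and tested for genotype with edgeR (4.0.16, R 4.3.3), two-sided, with Benjamini-Hochberg adjustment over 15032 genes. Normalized counts are counts over the effective library size, scaled to the mean of the 5 libraries. Calls required an adjusted p under 0.05, a mean of at least 50 normalized counts, and a log2 fold change over 0.3 in either direction. The biological coefficient of variation was 0.384, and an exact permutation test of 1 gene cannot go below p = 0.1 with 10 splits. No libraries were duplicates (chi-square per degree of freedom of pairs 14.2 to 35.1). The labels name no batch. RPKM used the union of exons of a gene. The limit for a count of 0 was 3 reads, which covers counting error only. The alternatives were RLE and upper-quartile factors, DESeq2 (1.42.0), limma-voom (3.58.1), other filters and thresholds, a sex term, the longest transcript as length, and leaving out each library. Tables and plots were made with Python (3.11.15), pandas (2.3.3), numpy (2.4.6), and matplotlib (3.10.9).

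The genes and lists were chosen with earlier results of these data known. Named are the genes listed, every gene of the M13 and endothelin lists, the 3 most abundant of each other list and any called, genes of the 5 most like *Ecel1*, and *Hif1a*, *Isl1*, and *Prph*. *Rbm45*, *Slc18a3*, *Isl2*, *Atf3*, *Stat3*, *Lnpep*, and further marker genes were named after their values were seen. Some genes, 1 of the 5 most like *Ecel1* among them, are not reported here.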

Additional observations from a re-analysis of the deposited data

How the results depend on the processing

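The number of genes called was 0 under every alternative run but DESeq2, which called 60 (30 higher and 30 lower), and the fits that left out 1 library, which called 0 to 4. The 4 were called without control replicate 5, where the remaining control was assumed to vary like the *Hif1aCKO* group, and all were lower, none of them a gene described above. *Ecel1* was called with DESeq2 only, at a log2 fold change of -1.81. For the 5 genes, all 56 alternative fold changes kept their direction, in refits of the same libraries from which *Ecel1* was chosen. Of these, 55 kept their side of the threshold, and the other was that of *Ecel1* with DESeq2. As most of these runs called 0 of all genes, the side of the threshold could hardly change in them. *Edn3* and *Ednra* had no value with at least 10 counts required in every library, and *Edn3* had none without control replicate 6 or without *Hif1aCKO* replicate 5. Without any 1 library, the log2 fold change of *Edn3* lay between -4.75 and -2.05, and that of *Ednra* was -3.99 with limma-voom. The level of *Ece2* per length was 1.16 RPKM by its longest transcript against 0.781 by all exons, and that of *Ednra* 1.56 against 1.03.

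Among the other genes named, 274 values kept direction and side, with the same limit on the side. *Ednrb* turned to -1.01 with limma-voom and lay between -0.79 and 2.74 without 1 library. Without 1 library, *Plcb4* lay between -0.0375 and 0.0762, *Nln* between -0.50 and 0.0618, *Adm* between -0.30 and 0.21, *Ier2* between -0.40 and 0.0635, *Btg2* between -0.44 and 0.12, and *Prph* between -0.0399 and 0.37, and each changed sign. The sign changed without control replicate 5 for *Adm*, *Ier2*, *Btg2*, and *Prph*, without control replicate 6 for *Plcb4*, without *Hif1aCKO* replicate 3 for *Ednrb* and *Btg2*, and without *Hif1aCKO* replicate 4 for *Nln*. *Isl1*, *Tbx20*, and *Irs1* were called with DESeq2. The cause of these changes was not tested. No paired analysis was possible because the groups share only replicate number 5. With 2 controls, the depth and the number of libraries limit genes with few reads, such as *Edn3*.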
